A study of Hordeum vulgare with 21 samples.

Results

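A group of 35 of the 35826 genes in the deposited tables had much less transcript in dry and steeped barley grain than after 1 day of germination. Most of their day 1 level, or more, was kept to day 5. They were chosen by their levels in TPM, a length-corrected share of a library's transcripts, averaged over the 3 replicates of a stage. A member had a day 1 mean of at least 30 TPM and at least 8 times the means of dry grain and of grain out of the steep. Its means on days 2 to 5 were each at least 0.5 of day 1, its day 2 mean was under 8 times day 1, and its day 5 mean was under 4 times day 2. The rise at day 1 and the level kept afterwards therefore follow from the choice of genes and are given as description without a test.

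The grain was Hordeum vulgare cultivar Conrad, a spring malting barley with 2-rowed ears, taken from 1 pool of 5 grain samples grown in 4 regions. Unmalted dry grain (Dry), grain taken from a 38 h steep (DoG0) and grain germinated at 17 °C for 1 to 5 days (DoG1 to DoG5) each gave replicates A, B and C, 21 libraries in all. All stages share this cultivar and pool, none was kilned, and the malted libraries came from 3 malting runs of 110 g dry weight. The labels give the source as seed, in which embryo, aleurone and starchy endosperm are not separated, and more cells of a type and more transcript per cell cannot be told apart. Library totals ran from 18145400 to 31582116 expected counts.

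In germinating barley the embryo takes up water, resumes growth and sends gibberellin to the aleurone, the living layer around the starchy endosperm. The aleurone and the scutellum of the embryo then make and secrete enzymes that break down cell walls, storage protein and starch, while root and shoot grow by wall loosening and cell division. Malting uses this period, and the transcripts that appear on the first day and persist are present through the whole of it. The files give gene IDs without names or functions, and none of the IDs was found in the reference gene table, so no function can be attached to any of the 35 genes and the label's tissue could not be checked against marker genes. The genes are called here by their rank in day 1 mean TPM, from 1 to 35, with the chromosome code of the ID, and 4 IDs are named.

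Of 119 genes that met the day 1 level and the 8-fold criterion, these 35 kept their level and the other 84 had at least 1 later mean under 0.5 of day 1. None was left out for rising past the upper limits. The member closest to the fold limit had a day 1 mean 8.21 times the higher of its dry and out-of-steep means, and the closest gene outside stood at 7.87 times. The lowest day 1 mean inside was 30.6 TPM and the highest outside 29.2 TPM. The lowest later mean inside was 0.507 of day 1, and the highest outside was 0.489. Genes on either side of each limit were thus nearly alike.

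**Figure D1:**
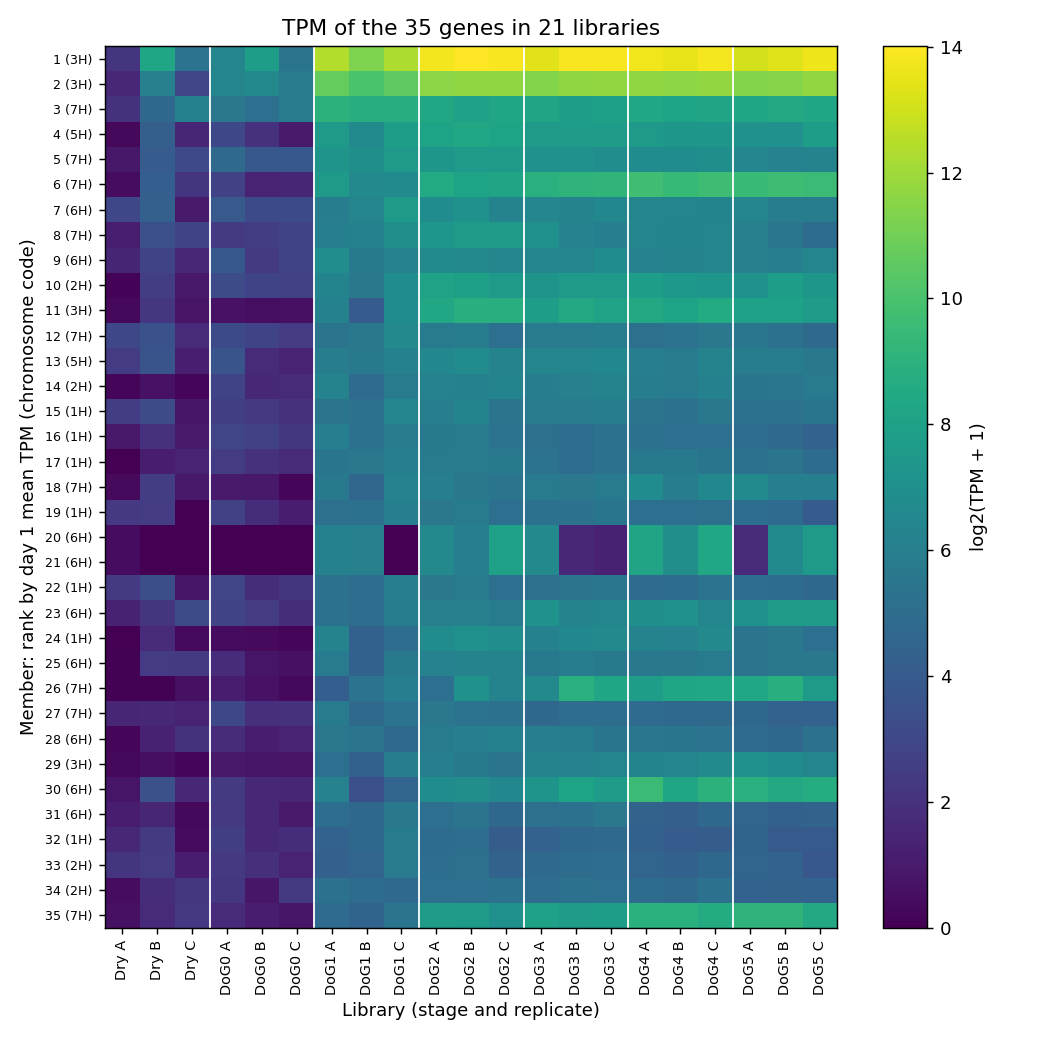
TPM of the 35 genes, one row each in order of day 1 mean TPM, in the 21 libraries, shown as log2(TPM + 1). The Dry and DoG0 columns are darker than the DoG1 to DoG5 columns; the gene of rank 1 reaches 16550 TPM in DoG2 replicate B, and ranks 20 and 21 are at 0 in DoG1 replicate C.

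The median member mean was 2.89 TPM in dry grain, 3.31 TPM out of the steep and 49.2 TPM at day 1, and 84.7, 77.6, 82.3 and 66.9 TPM on days 2 to 5. The medians of all 20637 tested genes moved between 6.63 TPM in dry grain and 12.2 TPM at day 1. Summed over the 35 genes, the share of all TPM was 0.0276% ± 0.0279 for dry grain, 0.0360% ± 0.0113 after steeping and 0.814% ± 0.240 at day 1 (SD, n = 3 each). Their share was 2.21% ± 0.160 at day 2, 2.02% ± 0.295 at day 3, 2.15% ± 0.212 at day 4 and 1.78% ± 0.238 at day 5 (SD, n = 3 each). Every library of days 2 to 5 held a larger share than any library of day 1. As a share of expected counts, which are not divided by length, the means were lower, at 0.478% at day 1, 1.31% at day 2 and 1.08% at day 5.

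Most of that share came from the genes of ranks 1 and 2, which stand in adjacent rows of the table and carry chromosome code 3H. They made up 70.8% of the members' TPM at day 1 and 82.7% at day 2. The rank 1 gene had 3.33, 311.9 and 39.9 TPM in dry replicates A, B and C and 83.7, 232.3 and 40.9 TPM out of the steep. At day 1 it had 5499.9, 2489 and 5051 TPM, and at day 2 it had 13754, 16550 and 14888 TPM. No dry or out-of-steep library came near the lowest day 1 library, and no day 1 library reached the lowest of day 2. Its mean was then 13392 TPM at day 3, 13330.3 TPM at day 4 and 10567 TPM at day 5. Its expected counts were fractional in 18 of 21 libraries, so part of its reads was shared with other genes or transcripts.

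The rank 2 gene had 2.08, 66.9 and 6.61 TPM in dry grain, and 82.8, 94.6 and 56.1 TPM out of the steep. It then had 1668, 1063 and 1531 TPM at day 1, and means of 3232 ± 139 TPM at day 2 and 3005 ± 327 TPM at day 5 (SD, n = 3 each). Both genes were lowest in replicate B among the day 1 libraries and highest in replicate B among the dry ones. Without this pair the other 33 genes held 0.237% ± 0.0485 of TPM at day 1, 0.382% ± 0.00770 at day 2 and 0.422% ± 0.0197 at day 5 (SD, n = 3 each). The remaining members at day 1 ran from 455.8 TPM at rank 3 down to 30.6 TPM at rank 35.

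**Figure D2:**
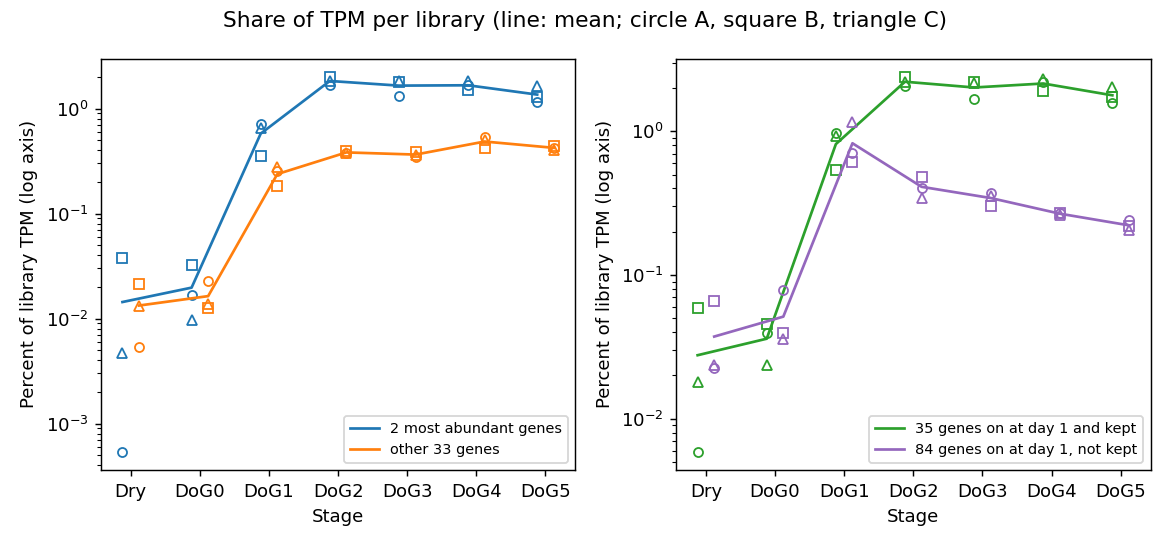
Percent of each library's TPM, on a log axis, by stage; points are libraries (circle A, square B, triangle C) and lines join stage means. The left panel splits the 35 genes into the 2 most abundant and the other 33, and the right panel sets the 35 genes, at 1.78% on day 5, beside the 84 genes that were not kept, at 0.222%.

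The most abundant named gene, HORVU.MOREX.r3.5HG0486660 (rank 4), had 0.21, 18.0 and 1.86 TPM in dry replicates A, B and C and 7.32, 3.06 and 1.02 TPM out of the steep. It had 189.7, 100.7 and 234.0 TPM at day 1, and 274.4, 327.1 and 280.4 TPM at day 2. The lowest day 1 library lay above all 6 earlier ones, and the dry and out-of-steep libraries overlapped. From day 3 to day 5 its means were 201.4 ± 13.8, 173.5 ± 7.34 and 166.2 ± 54.2 TPM (SD, n = 3 each).

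HORVU.MOREX.r3.6HG0606460 (rank 9) came from the longest transcript of the group, at 3.14 times the median length of a library. It had 1.77, 6.27 and 2.00 TPM in dry grain, 13.8, 4.29 and 6.08 TPM out of the steep, and 115.3, 49.2 and 74.3 TPM at day 1. Its later level was even, with means of 93.6 ± 7.42, 90.7 ± 13.8, 77.8 ± 4.96 and 70.8 ± 9.30 TPM on days 2 to 5 (SD, n = 3 each). All libraries of days 2 to 5 fell within the range of its 3 day 1 libraries.

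**Figure D3:**
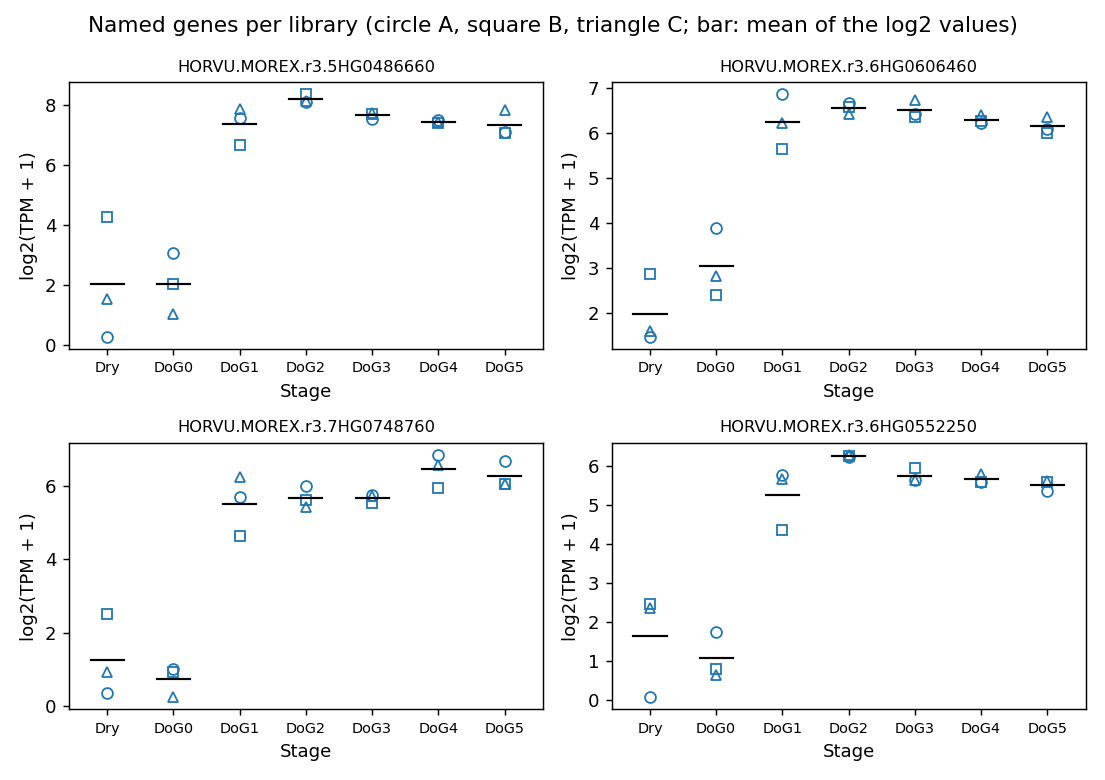
log2(TPM + 1) of the 4 named genes by stage; points are libraries (circle A, square B, triangle C) and bars the mean of the log2 values. In all 4 genes Dry replicate B (4.55 to 18.0 TPM) is the highest dry library and DoG1 replicate B (19.7 to 100.7 TPM) the lowest day 1 library.

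Whether the genes already moved during steeping was asked of grain out of the steep against dry grain, the 1 early comparison that the rule does not make: it limits both stages by day 1 but not against each other. Of the 35 genes, all of which passed the filter on low counts over the 21 libraries and 32 over the 6 libraries of this comparison alone, 3 rose and 5 fell (edgeR quasi-likelihood test, Benjamini-Hochberg adjusted p under 0.05 over all tested genes). These 8 genes are 22.9% of the members, against 61.2% of all tested genes called in that comparison, 29.2% as rising and 32% as falling. The rule keeps members low at both stages, and their median coefficient of variation between dry replicates was 89.7%, against 29.6% over all tested genes. The part of this in their lower share of calls was not tested. The 84 genes that were not kept gave 12 that rose and 8 that fell among 81 tested. The median log2 fold change of the members was -0.48, and that of all tested genes -0.02.

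The members that rose at steeping carried ranks 14, 16 and 17. The rank 14 gene, with chromosome code 2H, had 0.15, 0.61 and 0.15 TPM in dry grain and 6.16, 1.90 and 2.35 TPM out of the steep, with no overlap (log2 fold change 2.88, SE 0.48, edgeR adjusted p = 5.21e-05). It stood at 76.8, 29.4 and 54.5 TPM at day 1, with every day 1 library above the earlier ones. The other pair, both on 1H and also without overlap, had log2 fold changes of 1.11 (SE 0.33, edgeR adjusted p = 0.00716) and 1.44 (SE 0.50, edgeR adjusted p = 0.0184).

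The members that fell at steeping carried ranks 6, 18, 24, 25 and 35. HORVU.MOREX.r3.7HG0748760 (rank 18) had 0.27, 4.73 and 0.91 TPM in dry grain, from 8, 95 and 18 counts, and 1.02, 0.91 and 0.18 TPM out of the steep. Its log2 fold change was -2.004 (SE 0.75, edgeR adjusted p = 0.0280), although the libraries of both stages overlapped. At day 1 it had 50.2, 23.6 and 73.8 TPM, and its means were 89.1 ± 26.3 TPM at day 4 and 77.5 ± 20.8 TPM at day 5 (SD, n = 3 each).

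HORVU.MOREX.r3.6HG0552250 (rank 25) had 0.05, 4.55 and 4.13 TPM in dry grain, from 1, 66 and 59 counts, and 2.38, 0.75 and 0.56 TPM out of the steep. Its log2 fold change was -1.74 (SE 0.68, edgeR adjusted p = 0.0347), again with overlapping libraries. It had 53.6, 19.7 and 50.2 TPM at day 1, a narrow 74.1, 75.7 and 77.0 TPM at day 2, and 45.4 ± 4.32 TPM at day 5 (SD, n = 3).

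Dry replicate B held more of these transcripts than the other dry libraries. Whether it contained grain past the dry stage was not tested, and the dry means, the folds over dry grain and the calls at steeping all include it. The 35 genes made up 0.0592% of its TPM, against 0.00591% in replicate A and 0.0179% in replicate C, and the 3 out-of-steep libraries held 0.0235% to 0.0453%. It was the highest dry library for 26 of the 35 genes, or 74.3%, and for 42.3% of all tested genes. For the 84 genes not kept it was highest in 56. Without this library 8 members rose at steeping and 1 fell, and the median log2 fold change turned to 0.20. The rank 1 gene then rose with a log2 fold change of 2.02 (SE 0.70, edgeR adjusted p = 0.0196), against -0.46 (SE 0.84, adjusted p = 0.656) with all libraries. The rank 2 gene rose by 3.58 (SE 0.31, edgeR adjusted p = 4.64e-08) on the log2 scale, against 1.10 (SE 0.64, adjusted p = 0.150). Of the 2 named genes that fell, HORVU.MOREX.r3.7HG0748760 then had -0.32 (SE 0.76, adjusted p = 0.743) and HORVU.MOREX.r3.6HG0552250 -1.22 (SE 0.77, adjusted p = 0.183). With scaling by library size only, 4 members rose and 1 fell, and with the trend over transcript length removed 4 rose and 3 fell. Without DoG0 replicate C, 4 members rose and none fell, without DoG0 replicate B 4 rose and 1 fell, and without Dry replicate C 4 rose and 9 fell. With limma on log2(TPM + 1), 8 rose and none fell. The split between members called higher and lower at steeping thus moved with single libraries and with the scale. The shares of all tested genes called at steeping are from the first fit only, and these other counts have none beside them.

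**Figure D4:**
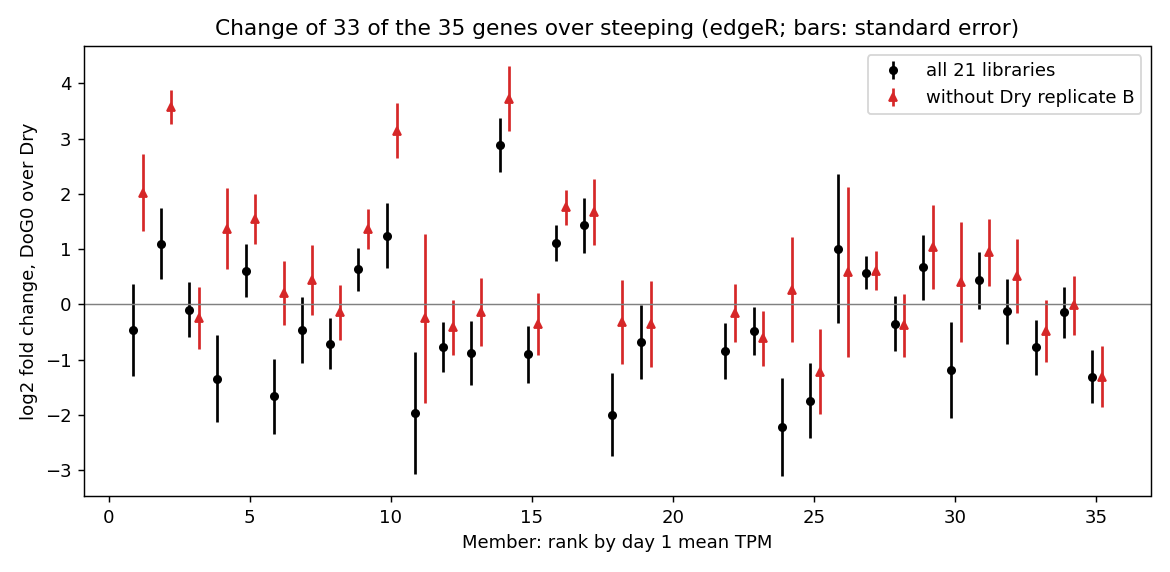
log2 fold change of DoG0 over Dry (edgeR, bars are standard errors) for 33 of the 35 genes by rank of day 1 mean TPM, with all libraries (black circles) and without Dry replicate B (red triangles); ranks 20 and 21, with no count out of the steep, are not drawn. Without that library rank 1 moves from -0.46 to 2.02 and rank 2 from 1.10 to 3.58.

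At the first day, the step that chose them, all 35 genes were called higher than out of the steep, where 52.2% of all tested genes were called and 28.4% rose, and nothing is read from that count. Their day 1 means were 8.63 to 168 times the out-of-steep means in the 33 genes with a count there, with a median of 15.1. Over dry grain the median was 22.6 times. The 3 day 1 libraries differed: replicates A, B and C had 0.972%, 0.538% and 0.933% of their TPM from the 35 genes. Replicate B was the lowest day 1 library for 22 of the 35 genes, or 62.9%, and for 35.5% of all tested genes, and it was the highest for none of the 35. The coefficient of variation between day 1 replicates had a median of 39.7% over members and 18.1% over all tested genes. In dry grain these medians were 89.7% and 29.6%, and out of the steep 48.4% and 17.2%. They were 15.9% and 10.2% at day 2, 11.6% and 11.7% at day 3, 13.3% and 9.18% at day 4, and 17.4% and 18.3% at day 5.

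The choice of genes was repeated on pairs of replicates to see how it held in libraries that took no part. On replicates B and C it took 29 genes, of which 15 met every criterion in the libraries of replicate A alone. On A and B it took 23, of which 11 met every criterion in C. On A and C it took 53, of which 5 met every criterion in B: 38 of the 53 were at least 8 times the out-of-steep level there, but 17 were at least 8 times the dry level. Of the genes taken without A, without B and without C, 22, 27 and 20 were among the 35. The counts in the left-out libraries cover all genes taken, members or not. In the left-out libraries day 1 lay above both earlier stages for 29 of 29 genes in A, 48 of 53 in B and 20 of 23 in C. With dry replicates A and C alone in place of all 3, an alternative chosen after seeing the data, the rule took 48 genes, the 35 among them.

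From day 1 to day 2 the rule bounded the change on both sides, so it is described only. The day 2 mean was above day 1 in 26 of the 35 genes and at least 2 times day 1 in 12, with ratios from 0.672 to 6.23. These are counts from TPM means. In the edgeR fit, made on scaled counts, the change was positive in 32 of the 35 members and in 10172 of the 20637 tested genes. By its adjusted p 7 members rose and none fell, where 36.7% of all tested genes were called and 19.7% rose. Without DoG1 replicate B 2 rose, and without DoG2 replicate B 4 rose. In a fit of the 6 libraries of the step 15 rose and 1 fell. The shares of all tested genes are from the fit of all 21 libraries and not from these others. The 84 genes not kept had 32 that fell and none that rose among 81 tested, a contrast that the rule itself makes. The largest day 2 ratio belonged to the rank 11 gene on 3H, which had 71.0, 15.7 and 108.4 TPM at day 1 and 336.3, 439.8 and 438.7 TPM at day 2. Its lowest day 2 library was over the highest of day 1, and its counts were fractional in 15 libraries.

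After day 2 the genes parted into several courses. The highest stage mean was at day 1 in 8 genes, at day 2 in 16, at day 3 in 1, and on the last days in 6 (day 4) and 4 (day 5). Of all tested genes 25.7%, 7.25%, 4.91%, 10.03% and 14.1% were highest on days 1 to 5, and the rest were highest in dry grain or out of the steep, which the rule does not allow a member. Those 8 with their peak at day 1 stood at 0.508 to 0.712 of day 1 by day 5, so they lay near the lower limit of the rule. The 16 that peaked at day 2 had a median day 5 level of 0.880 of day 1. The 4 that peaked at day 5 stood at 2.93 to 16.0 times day 1.

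**Figure D5:**
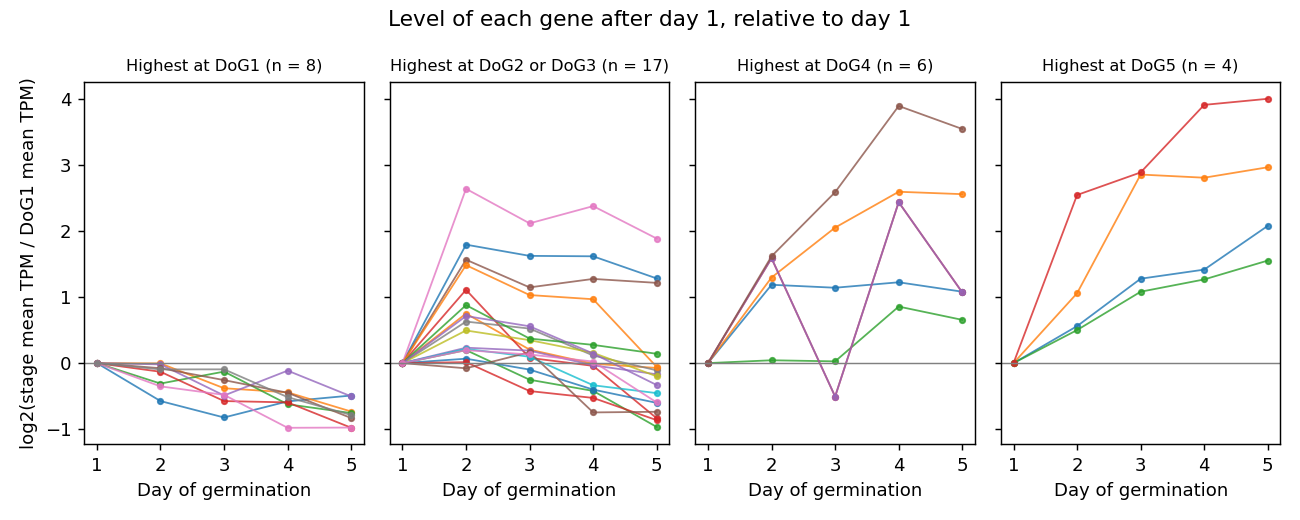
log2 ratio of each gene's stage mean TPM to its DoG1 mean over days 1 to 5, one line per gene, in panels by the stage of the highest mean. The 8 genes highest at DoG1 end between 0.508 and 0.712 of day 1, and the 4 highest at DoG5 between 2.93 and 16.0 times day 1.

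The steepest course was that of the rank 35 gene, with chromosome code 7H and whole counts in all libraries. It had 29.1, 22.1 and 40.5 TPM at day 1 and 207.6, 196.1 and 131.3 TPM at day 2. It reached 491.0, 500.3 and 385.8 TPM at day 4 and 562.9, 549.4 and 355.5 TPM at day 5. The libraries of days 4 and 5 lay above all those of days 1 to 3. From day 3 to day 5 its log2 fold change was 1.11 (SE 0.35) with an edgeR adjusted p of 0.112, and it did not pass.

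Other members that peaked at day 5 climbed more slowly or less evenly. The rank 23 gene, on 6H, had 38.2, 31.8 and 58.3 TPM at day 1 and 145.8, 189.2 and 206.7 TPM at day 5. The rank 29 gene, on 3H, had 33.7, 19.1 and 57.3 TPM at day 1 and 80.2, 81.2 and 103.6 TPM at day 4. In both genes these later libraries lay above all day 1 libraries. The rank 26 gene, on 7H, varied more, with 34.2, 144.3 and 75.8 TPM at day 2 and 94.8, 483.1 and 305.2 TPM at day 3, and its counts were fractional in 18 libraries.

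The course of the rank 8 gene, on 7H, was the reverse: it had 64.4, 70.7 and 119.1 TPM at day 1, 163.1, 200.4 and 184.9 TPM at day 2 and 68.2, 44.4 and 29.9 TPM at day 5. Its day 2 libraries stood clear of both other days, and days 1 and 5 overlapped. The rank 10 gene, on 2H, shared the peak at day 2 with 264.6, 244.6 and 191.1 TPM, after 78.0, 48.0 and 110.7 TPM at day 1, but still had 147.4, 230.0 and 171.8 TPM at day 5. Its day 5 libraries all lay above those of day 1.

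The rank 6 gene, also 7H, stood in the row next to the rank 3 gene but followed another course. Its TPM was 190.4, 96.5 and 98.0 at day 1 and 851.5, 676.5 and 794.9 at day 4. The rank 3 gene went from 517.3, 429.5 and 420.7 TPM at day 1 to 336.3, 283.8 and 295.3 TPM at day 4. At day 1 the rank 3 gene was the higher of the pair in every replicate and at day 4 the rank 6 gene was. Both had fractional counts in all 21 libraries, and the fractional parts of the pair add to a whole count. Examples are 65.75 and 8.25 counts in dry replicate A, and 3263.49 and 7940.51 in day 5 replicate C. Reads were thus shared within this pair, so their split between the rank 3 and rank 6 genes is uncertain, and with it the crossing of their courses.

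The rule also bounded the later changes, since each mean of days 2 to 5 was at least 0.5 of day 1 and day 5 was under 4 times day 2. No member passed the test between day 2 and day 3, day 3 and day 4, day 4 and day 5, or day 3 and day 5 (edgeR quasi-likelihood test over all tested genes). At an unadjusted p under 0.05 there were 3, 3, 0 and 5 of the 35 members, beside 3312, 2106, 1484 and 3665 of the 20637 tested genes. After adjustment, 1.98%, 0.15%, 0.126% and 1.44% of all tested genes were called in these comparisons. DESeq2 and limma on log2(TPM + 1), fitted to the same 21 libraries, also called none. When each comparison was fitted to its own 6 libraries, 8, 5, 0 and 7 members were called. The first were 3 that rose and 5 that fell, and the last 1 that rose and 6 that fell. The shares of all tested genes are from the fit of all 21 libraries, and these counts have none beside them. The median log2 fold change from day 3 to day 5 was -0.38 over the members and 0.01 over all tested genes, and 24 of the 35 values were negative.

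Transcript length is not independent of the choice, since TPM is divided by length: with CPM of expected counts in its place the rule took 27 genes, 15 of them among the 35. The median relative transcript length of the members was 0.576 of the library median, against 0.978 over all tested genes, and 29 of the 35 were shorter than that median of all tested genes. The 84 genes not kept had a median of 0.505. Expected counts were fractional in at least 1 library for 21 of the 35 members, for 47 of the 84 genes not kept and for 18.5% of all tested genes. Both sets that came on at day 1 were thus shorter and more often fractional than tested genes at large, a description for which no test was made. By chromosome code 9 members were on 6H, 9 on 7H, 7 on 1H, 4 on 2H, 4 on 3H, 2 on 5H and none on 4H. The pair on 6H with identical counts is 2 of those 9. Of all tested genes 12.0% were on 6H, 14.7% on 7H, 12.9% on 1H, 16.6% on 2H, 15.6% on 3H, 16.0% on 5H and 12.03% on 4H, and 15 of the 84 genes not kept were on 4H.

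The 12 members with fractional counts in at least 20 libraries were short, with a median relative length of 0.362, and had a median day 5 level of 0.601 of day 1. The other 23 had medians of 0.698 and 1.10. Some of those 23 also had fractional counts, and the 14 members with whole counts in every library had medians of 0.829 and 0.956. Replicate C was the highest day 1 library for 9 of the 12 and for 11 of the 23. The rank 7 gene on 6H, the shortest of all at 0.142, had 60.8, 81.2 and 191.3 TPM at day 1 and 109.7, 145.1 and 77.4 TPM at day 2. Its day 1 libraries spanned those of day 2.

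Some members lay near each other in the table: 14 of the 35 had another member within 50 rows, and 3 pairs filled adjacent rows. Ranks 20 and 21 are 1 of these pairs. Such counts were not made for the genes not kept or for all tested genes, so no excess among members is read from them. The pair of ranks 20 and 21 on 6H had identical expected counts in every library, so its reads were divided evenly and the values count 1 signal. It was at 0 in all 3 out-of-steep libraries and in dry replicates B and C. At day 1 each of these genes had 69.5, 68.6 and 0 TPM, at day 3 they had 94.0, 1.90 and 1.40 TPM, and at day 5 they had 2.19, 102.6 and 185.2 TPM. Replicates of 1 stage thus ranged from none to the full level, and the place of this pair in the group rests on means of such values.

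The rank 30 gene stands within a few rows of that pair, with fractional counts in all libraries. It had 73.6, 9.83 and 23.0 TPM at day 1, 149.8, 275.4 and 214.3 TPM at day 3 and 754.5, 317.7 and 507.8 TPM at day 4. Between it and the pair lie a pair of more abundant genes that are no members, with day 1 means of 310.0 and 538.1 TPM and day 5 means of 917.8 and 3340 TPM. They missed the group on the dry level alone, with day 1 at 3.94 and 6.70 times dry grain. Against dry replicates A and C only, they stood at 12.3 and 18.2 times. The rank 30 gene was itself the member nearest the fold limit, at 8.21 times dry grain, and stood at 26.1 times against dry replicates A and C.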

How the data were processed

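For each gene, expected counts (estimates that may be fractional) and TPM were deposited by the authors. Libraries were poly-A enriched with a stranded kit, per the labels' protocols. The submitters' processing notes name STAR and RSEM, but versions, genome build, annotation and strand setting were not given in the sources used here.

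The members and the sets beside them were chosen with earlier results of these data known. Expected counts were rounded, and 20637 genes passed filterByExpr (minimum count 10, 3 libraries, minimum total 15). A model with a mean for each of 7 stages was fitted to all 21 libraries with edgeR's quasi-likelihood test and TMM scaling (edgeR 4.0.16, R 4.3.3). Its code was first run on simulated counts with 1 spread for all genes and stages, for DoG2 against DoG1 only. That run does not cover an unequal spread between stages. Adjustment was by Benjamini-Hochberg across every tested gene, with a threshold of 0.05. Standard errors are the absolute log2 fold change over the square root of F. Alternatives used DESeq2 1.42.0, limma 3.58.1, other scalings and left-out libraries.

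Relative length is expected count over TPM, divided by the library median. Counts were called fractional when they lay over 1e-09 away from whole. None of the 35826 IDs matched the 58438 genes of the reference table. Without names, at most 4 IDs with whole counts in every library were named: the 2 highest at day 1, and the 2 with the most negative called change from Dry to DoG0 among those with a Dry mean of at least 1 TPM. Other ranks were described after their values were seen. Malted replicates came from separate runs on 1 pool of grain, and dry replicates were samples of that pool. The spread between replicates may therefore be technical. The fit of all libraries used 1 spread per gene, pooled over every stage. Its p-values and standard errors thus do not measure the spread of the compared stages alone.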

Additional observations from a re-analysis of the deposited data

How the results depend on the processing

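The number of members moved with the rule: 99 and 12 genes met it with a fold of at least 4 and 16, 67 and 12 with a day 1 level of at least 15 and 60 TPM, and 80 and 18 with later means of at least 0.25 and 0.75 of day 1. It was 23 to 53 when 1 replicate letter was left out of every stage, with 20 to 27 of these among the 35. It was 28 with TMM-scaled TPM, 27 with CPM of expected counts and 45 with medians, of which 27, 15 and 26 were among the 35. For steeping, 5 members were called with scaling by library size only and 1 with only the 6 libraries of the step. Leaving out 1 library gave 4 to 13. The members' median log2 change over steeping was -0.48. It was 0.051 and 0.066 from log2 of stage means with pseudocounts of 1 and 0.1 TPM, 0.26 and 0.52 from means of log2 values with the same pseudocounts, and 0.26 with limma on log2(TPM + 1). It lay between -0.68 and 0.20 with 1 library left out. HORVU.MOREX.r3.5HG0486660 had a log2 fold change over steeping of -1.35 (edgeR adjusted p = 0.151), of 0.017 with limma and, with 1 library left out, from -2.10 to 1.37, the last without Dry replicate B. It was called only without Dry replicate A (-1.90, edgeR adjusted p = 0.0193). HORVU.MOREX.r3.6HG0606460 had 0.63 (edgeR adjusted p = 0.167), -0.45 with the trend over transcript length removed (adjusted p = 0.279), and was called higher without Dry replicate B (1.36, edgeR adjusted p = 0.00388) and with limma (1.06, adjusted p = 0.0152). From day 1 to day 2, 16 members were called with the 6 libraries of the step, 15 that rose and 1 that fell, and 2 to 7 with 1 library left out. For day 3 against day 2, day 4 against day 3 and day 5 against day 3, the 6 libraries of the step gave 8, 5 and 7 members, against 0 in each with all libraries. With all libraries 1.98%, 0.15% and 1.44% of all tested genes were called in these comparisons. No such share stands beside the counts from the other fits of this section, so nothing particular to the members is read from them. The fit of all libraries used 1 spread per gene over the 7 stages. Over members, the median coefficient of variation between replicates was 89.7%, 48.4% and 39.7% in Dry, DoG0 and DoG1. From DoG2 to DoG5 it was 15.9%, 11.6%, 13.3% and 17.4%. The cause of the differences between the fits was not tested. From DoG0 to DoG1, 33 to 35 members were called in every setting run.

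With a replicate block by letter, 3 members rose and 2 fell over steeping, 5 in all. HORVU.MOREX.r3.6HG0552250 then had a log2 fold change of -1.72 with an edgeR adjusted p of 0.0536. The block changed no other count of members by over 1.5 times. The labels do not say whether a letter follows 1 malting run through the stages, and the letters were not taken as pairs. Correlations of deviations between same-letter libraries ran from -0.36 to 0.32, and 10 of 21 were highest with their own letter. These values cannot exclude a pairing by letter. The named genes that fell over steeping had 1 to 95 counts per dry library, and the part of depth in their calls was not tested.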
